A study of Mus musculus with 6 samples.

Results

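Type I interferon response genes were followed across single-cell libraries of mouse brain myeloid cells. The set holds 31 listed genes of the 19361 genes found in the 6 deposited tables. Its members were chosen by name, with earlier results of these data known. All 31 have a row in 4 of the tables, Ifi44 has none in naive 1, and Usp18 has none in metastasis 2. Cd11b-enriched cell suspensions were made from brains of mice aged 2 to 3 months on a C57BL/6 background and run by Drop-seq, a droplet method in which a barcode marks the cell and a unique molecular identifier (UMI) the captured molecule. The naive group had unmodified mice without tumours, and the metastasis group had unmodified mice carrying brain metastases 2 to 3 weeks after cardiac injection of E0771, a mouse mammary carcinoma line. Each of these groups had 2 libraries, every one from 1 brain, with replicate 1 sequenced on a HiSeq 2500 and replicate 2 on a NextSeq 500. The Cx3cr1+/- (heterozygous) and Cx3cr1-/- (null) groups had 1 library each, from 2 pooled brains with metastases, on the NextSeq 500. No naive library of either Cx3cr1 genotype was analysed here. Cx3cr1 is the receptor for the neuron-derived chemokine fractalkine and is carried by microglia.

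Type I interferons are secreted when cells sense viral or misplaced nucleic acid. They bind a receptor made of Ifnar1 and Ifnar2, and the kinases Jak1 and Tyk2 then activate a complex that holds Stat2 and Irf9 and binds the interferon-stimulated response element (ISRE) in promoters. The induced proteins block steps of virus replication, sense more nucleic acid or feed back on the pathway, and a small set of microglia with this programme is known in aged, injured and infected brain.

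The ISRE is the letter pattern that ties these genes to the pathway, so promoter stretches that hold it are shown for 8 members. RefSeq promoter windows of GRCm38.p6, each running from 250 bases before the gene start to 50 after it, were matched by symbol for 24 of the 31 members. Ifi27l2a, Ifi204, Parp14, Rtp4, Zbp1, Mx1 and Usp18 had no window. The letters GAAA followed, after any 2 bases, by a further GAAA, read on either strand, stood in the windows of 13 of these 24 members and in those of 3.99% of all genes. Capitals mark the matches, which appear as TTTC, 2 bases and TTTC where the other strand holds them. The first 5 stretches are those of the matched members with the most UMIs in microglia-like cells. Isg15, Rsad2 and Ifit3 were added by name after their values were seen.
Bst2, chr8:71537557-71537632, minus strand: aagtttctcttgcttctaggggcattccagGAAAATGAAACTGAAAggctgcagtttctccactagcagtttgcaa
Ifitm3, chr7:141010723-141010752, minus strand: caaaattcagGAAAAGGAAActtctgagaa
Trim30a, chr7:104465194-104465259, minus strand: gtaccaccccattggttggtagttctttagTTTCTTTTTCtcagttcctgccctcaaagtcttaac
Stat2, chr10:128270248-128270315, plus strand: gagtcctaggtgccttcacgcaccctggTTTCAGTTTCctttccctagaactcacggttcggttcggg
Ifih1, chr2:62646206-62646233, minus strand: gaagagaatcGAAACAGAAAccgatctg
Isg15, chr4:156200845-156200926, minus strand: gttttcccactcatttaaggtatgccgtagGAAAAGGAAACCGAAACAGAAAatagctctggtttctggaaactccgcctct
Rsad2, chr12:26456533-26456602, minus strand: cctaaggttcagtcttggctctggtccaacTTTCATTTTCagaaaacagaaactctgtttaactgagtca
Ifit3, chr19:34583343-34583446, plus strand: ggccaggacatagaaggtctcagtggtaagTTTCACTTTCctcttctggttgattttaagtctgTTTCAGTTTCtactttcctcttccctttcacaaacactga

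Isg15 held 3 overlapping matches in 1 run, Bst2 held 2 overlapping matches, and Ifit3 held 2 separate ones. In Ifitm3 and Ifih1 the match shown lay after the annotated gene start, and only a short stretch around it is given. The other members with the letters were Phf11b, Slfn5, Oas1a, Ddx58 and Ifit1. The GAS letters TTCNNNGAA, which read the same on both strands, stood in the windows of 5 of the 24 members and of 9.55% of all genes. A match of letters is a description of the window and does not show a bound site.

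A barcode was kept as a cell if it had 400 or more genes and less than 10% mitochondrial UMIs, and clusters named from marker genes separated microglia-like from other cells. Naive 1 kept 420 cells (385 microglia-like), naive 2 kept 181 (126), metastasis 1 kept 990 (155) and metastasis 2 kept 81 (76). Heterozygous kept 251 cells (190 microglia-like) and null 160 (126). Median UMIs per microglia-like cell ran from 1026.5 in metastasis 2 to 3646 in heterozygous, and total UMIs per deposited table from 491621 to 2667099. All 11 microglia markers were detected in the heterozygous and null microglia-like sums. Cx3cr1 stood at 56.0 UMIs per 1e6 (CPM) in null microglia-like cells, against 1276 in heterozygous and 978 to 4390 in the libraries of unmodified mice. Libraries are called by their sample labels here. For the 4 libraries of unmodified mice the table names carry the other group, so each direction between naive and metastasis below is that of the libraries as labelled. A cluster led by Rhox5, a gene of the carcinoma marker list, held 63 cells of metastasis 1 and 1 of null, and no kept cell of metastasis 2 or heterozygous. Rhox5 and Esx1, also of that list, were detected in naive 2, in microglia-like cells and in barcodes outside the filters. Neither had a UMI in any barcode of metastasis 2 or naive 1. Outside the filters, all carcinoma markers together were at 87.8 CPM in naive 2 (73 UMIs) and 39.0 in metastasis 2 (12 UMIs). Whether the labels or the table names are right was not tested. Metastasis 1 stood apart, since 152 of its 155 microglia-like cells shared a cluster with Gpr84 and Ccl3 among its leading genes that held only 4 further cells, all heterozygous, and that was named against the rest of that library. Most naive 2, heterozygous and null microglia-like cells lay in another cluster, and most of naive 1 and metastasis 2 in a further pair led by Egr1 and by Ttr. The metastasis 1 cluster was not found under looser filters. Only 6 metastasis 1 cells were then named microglia-like with a 25% mitochondrial limit, and 7 with a minimum of 200 genes. One barcode sequence was shared between naive 2 and null, and none between any other pair of libraries.

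In microglia-like cells the 31 genes together made up between 0.0944% and 0.495% of all UMIs. The pooled share was 0.0944% in naive 1, 0.255% in naive 2, 0.373% in metastasis 1, 0.0945% in metastasis 2, 0.255% in heterozygous and 0.495% in null. Null was therefore the highest library and naive 1 and metastasis 2 the lowest, and each replicate pair of the unmodified mice held 1 library of that lowest level. The median cell gave 0.0736%, 0.152%, 0.339%, 0.0754%, 0.180% and 0.264% in the same order. By the median cell metastasis 1 and not null was the highest. Slfn2 alone held 24.0% of the member UMIs of metastasis 1 and 5.93% to 14.1% of those of the other libraries, and without it metastasis 1 stood at 0.283%. In these sums fewer expressing cells and fewer transcripts per cell cannot be told apart, which the per-cell values below address.

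**Figure D1:**
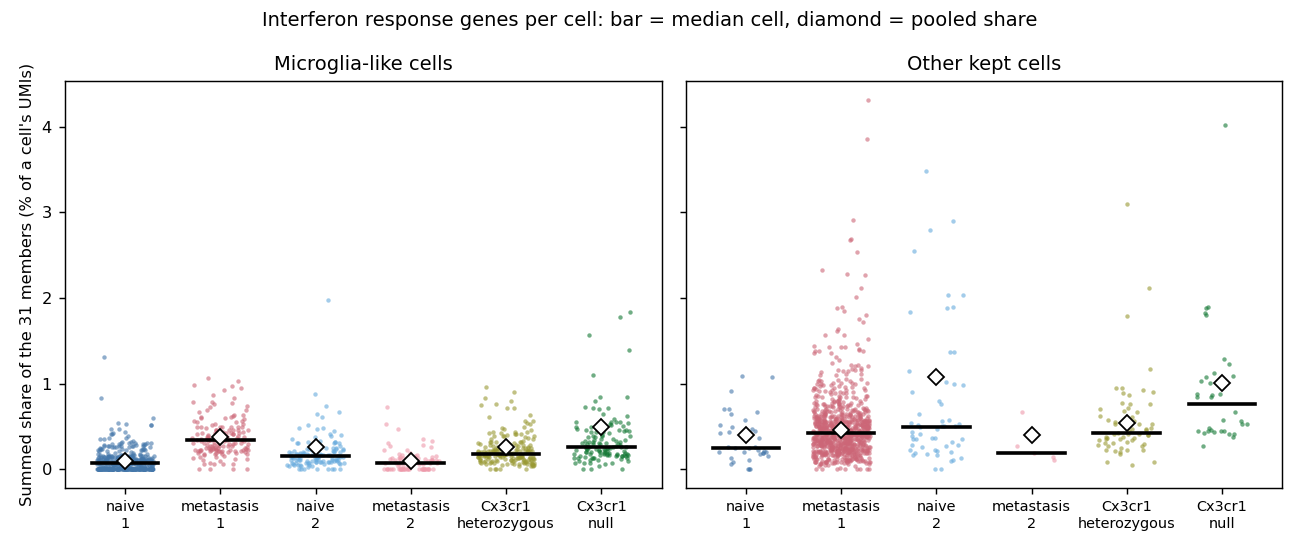
Summed share of the 31 interferon response genes in each kept cell, as percent of the cell's UMIs, by library, for microglia-like cells (left) and other cells (right). Each point is a cell, the bar is the median cell and the diamond the pooled share. In null and naive 2 the diamond lies well above the bar (0.495% against 0.264% and 0.255% against 0.152% in microglia-like cells).

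Both a few high cells and a general level contributed to the sums, in proportions that differed between libraries. In null, the 6 cells with the highest shares (5% of 126) held 42.5% of the member UMIs and 13.3% of all UMIs of the microglia-like cells. The 6 such cells of naive 2 held 43.0% and 11.1%, and the 10 of heterozygous 24.5% and 7.59%. In naive 1, metastasis 1 and metastasis 2 the top 5% of cells held 17.1%, 13.1% and 10.4% of the member UMIs and 3.36%, 5.06% and 1.91% of all UMIs. Cells were ranked by member share, so in any library the top cells must hold a larger part of the member UMIs than of all UMIs. The parts of both were largest in null, naive 2 and heterozygous. With every cell thinned to 800 UMIs, the top 5% held 20.4% in null, 22.9% in naive 2 and 16.9% in heterozygous.

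The dispersion of member UMIs over cells, which is 1 when all cells share a single level, set the same 3 libraries apart. It was 17.7 in null, 14.1 in naive 2 and 7.08 in heterozygous, against 2.45 in naive 1, 2.35 in metastasis 1 and 2.16 in metastasis 2. Deeper libraries can reach higher values of this measure, so it was also read after the thinning to 800 UMIs, which left out 79 shallower cells of naive 1, 7 of naive 2, 24 of metastasis 2, 8 of heterozygous and 6 of null. Thinned cells with 4 or more member UMIs made up 2.61% in naive 1, 10.6% in naive 2, 34.1% in metastasis 1, 3.85% in metastasis 2, 13.6% in heterozygous and 25.6% in null. The variance over the mean of the thinned counts was 2.90 in null and 2.73 in naive 2, and 1.54 to 1.82 in the other 4 libraries, heterozygous included. Cells without a single member UMI at full depth were 34.5% of naive 1 and 38.2% of metastasis 2, and 2.38% to 6.35% of the other 4.

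Single microglia-like cells with at least 24 of the 31 members detected were found in 3 libraries. In null, 1 cell of 34456 UMIs held 631 of the library's 2295 member UMIs (27.5%) and had at least 1 UMI of all 31 members. It also held 371 UMIs of the interferon-induced chemokine gene Cxcl10, 277 UMIs of microglia markers and 54 of all other cell-type markers, and its doublet score stood at percentile 93.1 of its library. The highest cell of naive 2 had 192 member UMIs and 27 members detected, with 141 microglia-marker and 15 other-marker UMIs. That of heterozygous had 219 member UMIs and 24 members, with 330 and 67 marker UMIs. In naive 1 and metastasis 2 no microglia-like cell had more than 9 members detected, and the highest of them held 16 and 14 member UMIs. At least 15 members were detected in 10 null, 8 heterozygous, 3 naive 2 and 1 metastasis 1 microglia-like cells. These cells were deep, with median UMIs of 10683.5 in null and 15066.5 in heterozygous. The 6 null cells with the highest shares had a median doublet percentile of 87.3, against 50.9 for the rest. Among them 2 lay in the top 5% of doublet scores, and 0 of the rest did. The medians were 80.2 and 59.1 in naive 2, and 56.0 and 40.6 in heterozygous. Whether any of these cells were doublets was not tested. With the 5% of barcodes of highest doublet score removed from each library, the top 5% of null cells held 50.4% of the member UMIs.

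**Figure D2:**
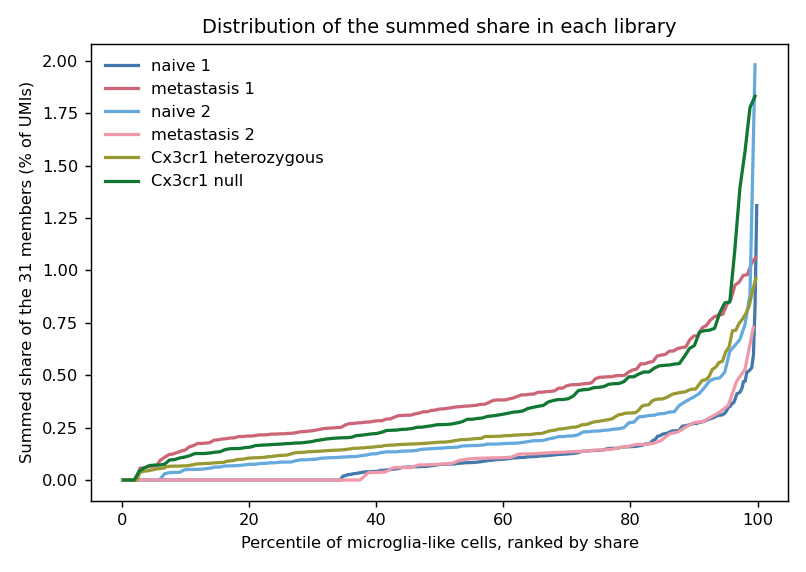
Summed share of the 31 genes (y axis, percent of a cell's UMIs) against the percentile of microglia-like cells ranked by that share (x axis), 1 line per library. The null line runs above the heterozygous line from the 10th to the 95th percentile and turns up steeply at the right end, as the naive 2 line does.

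The members were then read by role in microglia-like cells, as CPM over all microglia-like cells of a library. Of the 31 members, 26 had at least 50 UMIs over the 6 libraries and are given in full. In metastasis 2, 3 counts are 17.4 CPM, and values of 5.80 and 11.6 CPM there rest on 1 and 2 UMIs. Of these 26 members, 21 were highest in null, while 13.3% of all 7089 genes with as many UMIs were. Metastasis 2 was lowest for 15 of the 26, against 26% of all genes, and naive 1 for 10, against 19.7%. Metastasis 1 was highest for 4, below the 31.1% of all genes.

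Transcription factors and ubiquitin-like conjugation genes form the feedback group. Irf7, the factor that amplifies interferon production, stood at 4.14 CPM in naive 1 (3 UMIs), 81.2 in naive 2 and 87.0 in metastasis 1. It was at 5.80 in metastasis 2 (1 UMI), 65.6 in heterozygous and 134 in null. Both the naive and the metastasis group thus held 1 library with at most 3 UMIs and 1 at a level near that of heterozygous. Stat2, the transcription factor that works with Irf9, was at 31.7 CPM in naive 1, 57.3 in naive 2, 94.0 in metastasis 1, 46.4 in metastasis 2, 82.3 in heterozygous and 94.8 in null. Isg15 encodes a ubiquitin-like protein that is attached to other proteins. It reached 175 CPM in null, against 33.1 in naive 1, 43.0 in naive 2, 73.1 in metastasis 1, 23.2 in metastasis 2 and 25.05 in heterozygous. Herc6, the mouse ligase that attaches Isg15, had a narrower range, at 24.8 CPM in naive 1, 38.2 in naive 2, 24.4 in metastasis 1, 11.6 in metastasis 2, 28.6 in heterozygous and 32.3 in null. Usp18, which removes Isg15 and restrains the receptor, had under 50 UMIs and ranged from no UMI in metastasis 2 to 47.4 CPM in null.

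Nucleic acid sensors came next. Ifih1 encodes the RNA sensor MDA5, and its level was 45.5 CPM in naive 1, 52.6 in naive 2, 174 in metastasis 1, 11.6 in metastasis 2, 47.7 in heterozygous and 66.8 in null. It was 1 of the 4 members highest in metastasis 1. Ddx58, the RNA sensor RIG-I, was at 22.1 CPM in naive 1, 26.3 in naive 2, 26.2 in heterozygous and 49.6 in null. It was at 17.4 CPM in metastasis 1 (5 UMIs, 5.65 to 40.6) and 23.2 in metastasis 2 (4 UMIs, 6.32 to 59.4). These counting intervals are too wide to show a shared level. Zbp1, a sensor of left-handed nucleic acid, gave 5.52 CPM in naive 1, 33.4 in naive 2, 38.3 in metastasis 1, 52.5 in heterozygous and 97.0 in null, and no UMI in metastasis 2, where 3 counts correspond to 17.4 CPM. For Ifi204, of the DNA-binding interferon-inducible p200 family, values were 26.2 in naive 1, 93.2 in naive 2, 191 in metastasis 1, 29.0 in metastasis 2, 83.5 in heterozygous and 239 in null. Its close paralogs could share reads with it, and so could those of the Ifit, Oas, Slfn, Phf11 and Trim30 genes.

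Effectors against viral RNA and virus growth showed the widest range. Ifit2 and Ifit3 belong to a family of tetratricopeptide proteins that bind foreign RNA. Ifit2 was at 11.0 CPM in naive 1, 40.6 in naive 2, 108 in metastasis 1, 58.4 in heterozygous and 192 in null, with no UMI in metastasis 2. Ifit3 was at 1.38 CPM in naive 1 (1 UMI), 35.8 in naive 2, 66.1 in metastasis 1, 5.80 in metastasis 2 (1 UMI), 53.7 in heterozygous and 131 in null. Oas1a makes the short oligoadenylates that switch on RNase L, and Oasl2 is a relative of it. Oasl2 gave 4.14 CPM in naive 1, 31.1 in naive 2, 31.3 in metastasis 1, 5.80 in metastasis 2, 22.7 in heterozygous and 114 in null. Oas1a gave 9.65 in naive 1, 54.9 in naive 2, 17.4 in metastasis 1, none in metastasis 2, 17.9 in heterozygous and 84.1 in null. Both were highest in null, and for Oas1a naive 2 lay above heterozygous. Rsad2, or viperin, makes a chain-terminating nucleotide and stood at 24.8 CPM in naive 1, 40.6 in naive 2, 90.5 in metastasis 1, 5.80 in metastasis 2, 27.4 in heterozygous and 125 in null. Mx1, a GTPase, was at 11.0 in naive 1, 28.7 in naive 2, 41.8 in metastasis 1, none in metastasis 2, 23.9 in heterozygous and 43.1 in null. Isg20, Ifit1 and Cmpk2 had under 50 UMIs each and were at most 34.5 CPM in any library. Cmpk2, the neighbour of Rsad2 in the genome, had 13 UMIs in null and none in heterozygous.

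Ifitm3, which blocks virus entry at endosomal membranes, gave 67.6 CPM in naive 1, 248 in naive 2, 418 in metastasis 1, 46.4 in metastasis 2, 208 in heterozygous and 455 in null. Bst2, or tetherin, holds budding virus at the cell surface. Its levels were closer together, at 128 CPM in naive 1, 315 in naive 2, 226 in metastasis 1, 151 in metastasis 2, 265 in heterozygous and 414 in null. Lgals3bp, a secreted galectin-binding glycoprotein, was at 91.0 in naive 1, 301 in naive 2, 219 in metastasis 1, 156 in metastasis 2, 421 in heterozygous and 487 in null. The first of these 3 had its lowest level in metastasis 2 and the other two in naive 1.

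The remaining 10 members are induced by interferon with varied or less settled roles. Slfn2, a schlafen protein needed for quiescence and virus resistance of immune cells, had its highest level in metastasis 1, at 894 CPM, against 62.0 in naive 1, 191 in naive 2, 133 in metastasis 2, 193 in heterozygous and 293 in null. No other member stood so far above the null library in metastasis 1. Ifi27l2a was at 81.3 CPM in naive 1, 311 in naive 2, 247 in metastasis 1, 40.6 in metastasis 2, 299 in heterozygous and 675 in null. Trim30a, a ubiquitin ligase that restrains Toll-like receptor signalling, had a narrow range, at 110 in naive 1, 150 in naive 2, 178 in metastasis 1, 156 in metastasis 2, 200 in heterozygous and 272 in null. Parp14, an ADP-ribosyltransferase, was at 35.8 in naive 1, 74.1 in naive 2, 136 in metastasis 1, 40.6 in metastasis 2, 72.7 in heterozygous and 119 in null. Xaf1, which antagonises the apoptosis inhibitor XIAP, followed the same order at the top, with 104 in metastasis 1 and 101 in null, against 23.4 in naive 1, 35.8 in naive 2, 17.4 in metastasis 2 and 59.6 in heterozygous. Rtp4 was at 13.8 in naive 1, 71.7 in naive 2, 66.1 in metastasis 1, 11.6 in metastasis 2, 65.6 in heterozygous and 116 in null. Slfn5 was at 8.27 in naive 1, 35.8 in naive 2, 69.6 in metastasis 1, none in metastasis 2, 41.7 in heterozygous and 88.4 in null. Both had null as the highest library and metastasis 2 as the lowest. Phf11b stood at 31.7 in naive 1, 43.0 in naive 2, 31.3 in metastasis 1, 11.6 in metastasis 2, 47.7 in heterozygous and 112 in null. Its neighbour Phf11d stood at 16.5 in naive 1, 45.4 in naive 2, 41.8 in metastasis 1, 11.6 in metastasis 2, 21.5 in heterozygous and 69.0 in null. Ifi44 had 21 UMIs in all, of which 14 were in null.

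**Figure D3:**
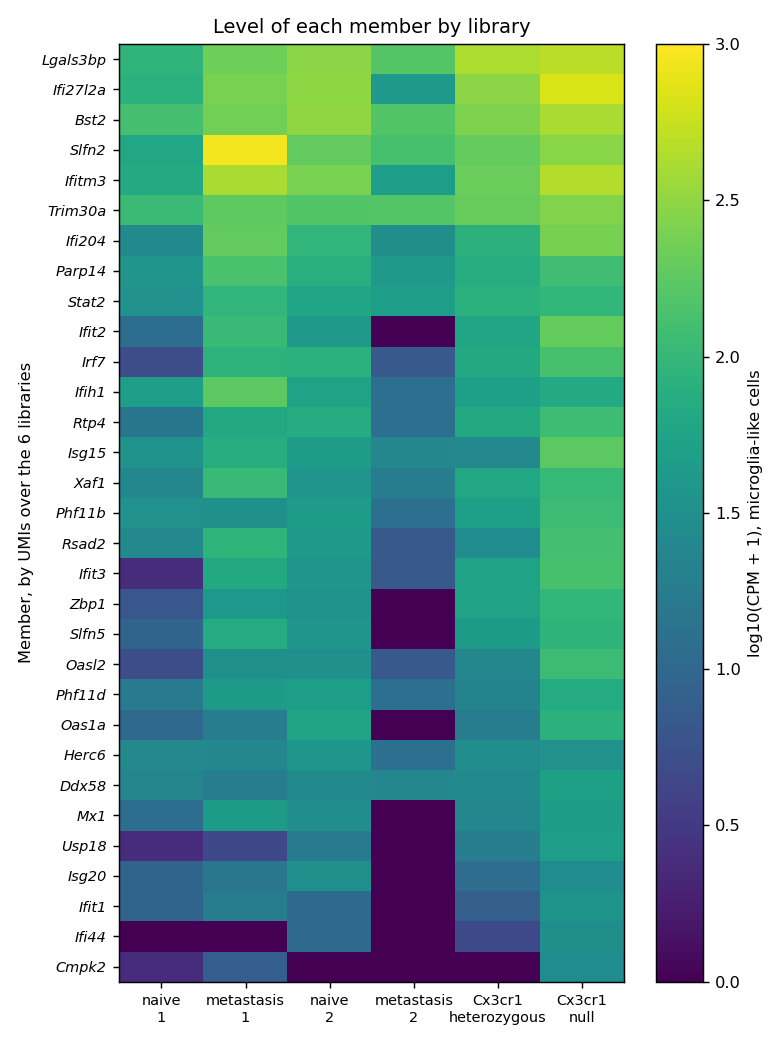
Level of each member in microglia-like cells by library, as log10 of CPM plus 1, with members ordered by UMIs over the 6 libraries. Of the 26 members with at least 50 UMIs, the null column is the highest for 21, against 13.3% of all genes. The metastasis 2 column is the lowest for 15 of them, against 26%. In metastasis 2, 10 of the 31 members had no UMI.

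Null and heterozygous microglia-like cells were compared to ask how the members lie with and without Cx3cr1 in brains with metastases. Every measured member had the higher level in null. With 1 library each there was no test and no replicate check, and intervals (exact, 95%) cover counting error only. The summed list was 1.94-fold higher in null (1.83 to 2.06). Of the 31 members, 23 had at least 50 UMIs over both libraries. All 23 were higher in null, a direction taken by 46.2% of the 4635 genes with as many UMIs, and 19 of the 23 were at least 1.5-fold higher, as were 7.44% of those genes. The median log2 ratio of CPM was 1.08 for the members and -0.04 for all genes. For 20 of the 23 the counting interval lay above 0, a count for which no share over all genes was computed.

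Effectors had the largest differences, with a median log2 ratio of 2.19 over 5 measured genes, against 1.03 for 3 feedback genes, 0.89 for 3 sensors, 0.64 for 3 membrane and secreted proteins and 0.83 for 9 others. Isg15 had the largest log2 ratio, at 2.80 (2.09 to 3.57). It was followed by Oasl2 at 2.33 (1.55 to 3.17), Oas1a at 2.23 (1.34 to 3.20), Rsad2 at 2.19 (1.47 to 2.95) and Ifit2 at 1.71 (1.20 to 2.25). Phf11d at 1.68, Ifi204 at 1.52, Ifit3 at 1.29, Phf11b at 1.23, Ifi27l2a at 1.17, Ifitm3 at 1.13, Slfn5 at 1.08 and Irf7 at 1.03 were more than 2-fold higher. The 3 members whose intervals held 0 were Stat2 at 0.20 (-0.37 to 0.77), Ifih1 at 0.49 (-0.24 to 1.20) and Lgals3bp at 0.21 (-0.04 to 0.46). Cmpk2 was at least 2.97 higher on the log2 scale when its 0 in heterozygous was set to 3 counts, and Ifi44, with 14 against 3 UMIs and a floor of 3 counts, had a ratio of 3.08 (1.24 to 5.52). Measured members whose windows hold the ISRE letters had a median of 1.13 (11 genes, 0.20 to 2.80), and those whose windows do not 1.03 (7 genes, 0.21 to 2.33).

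Part of this gap came from few cells and part was present through the distribution. Null over heterozygous ratios of the per-cell share were 1.66 at the 10th percentile, 1.46 at the 25th, 1.46 at the median, 1.58 at the 75th, 1.46 at the 90th and 1.41 at the 95th. Without the 5% of cells with the highest share in each library the pooled ratio was 1.57, and the members at least 1.5-fold higher were 8 of the 16 that still had 50 UMIs. Over the same 23 members regardless of that minimum, 22 were higher and 15 at least 1.5-fold higher. No share over all genes was computed without these cells, so these counts have no background to be set against. Without only the 1 cell with the most member UMIs in each library, an alternative chosen after seeing the data, the log2 ratio of the sum was 0.72, against 0.96 with all cells. Thinned to 800 UMIs per cell it was 0.64.

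Members differed in how far the high cells carried them. In null, the 6 top cells held 75.3% of the Isg15 UMIs, 63.8% of Rsad2 and 59.4% of Ifi27l2a, against 10.9% of Parp14, 14.9% of Xaf1 and 22.2% of Rtp4. Without the top 5% of cells of each library Isg15 stood at 1.68 in log2 ratio, Rsad2 at 1.09, Ifi27l2a at 0.51 and Ifit3 at 0.49. Irf7 was at 1.4998, Oasl2 at 2.42, Oas1a at 2.78 and Ifit2 at 1.76, each higher than with all cells. Stat2 then stood at -0.15. The top null cells also held more UMIs of monocyte and macrophage markers than the rest, at 667 against 276 CPM, and fewer of the microglia markers, at 12087 against 18489 CPM. In heterozygous these values were 1006 against 212 and 14481 against 16473 CPM. The part of these markers in the result was not tested.

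**Figure D4:**
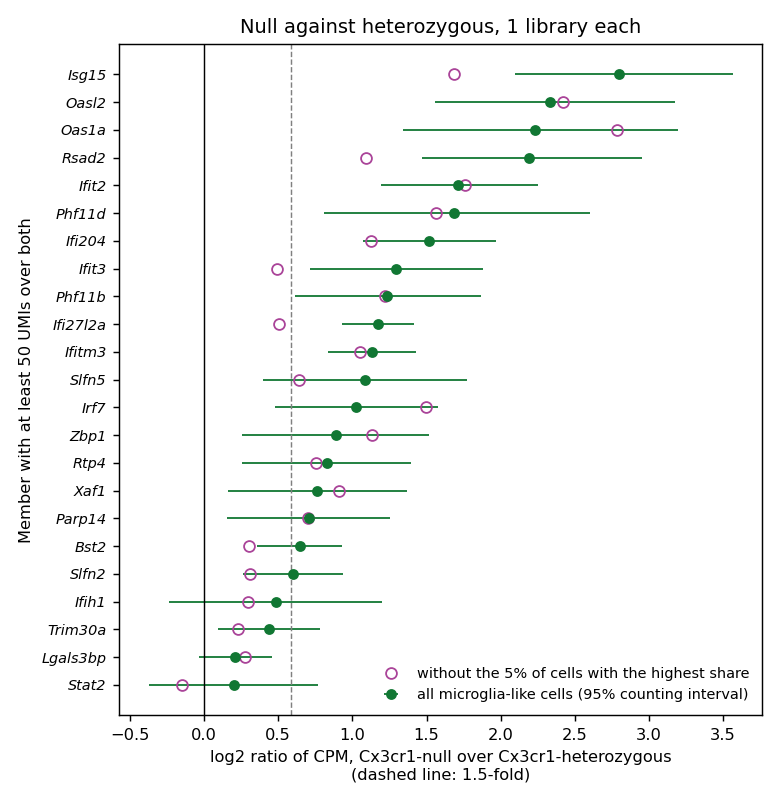
Log2 ratio of CPM, null over heterozygous, for the 23 members with at least 50 UMIs, in all microglia-like cells (filled, with the 95% counting interval) and without the 5% of cells with the highest share in each library (open). Isg15, Rsad2, Ifit3 and Ifi27l2a move left by the most when these cells are left out, and Irf7 and Oas1a move right. Isg15, Rsad2 and Oas1a are then below 50 UMIs.

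The share was also read within microglia-like clusters. In the cluster that held most cells of both libraries, the pooled share was 0.514% (0.493 to 0.536) in 105 null cells and 0.252% (0.241 to 0.264) in 167 heterozygous cells, with medians of 0.264% and 0.176%. The 91 naive 2 cells of that cluster were at 0.269% with a median of 0.155%. In the cluster led by Egr1 the shares were 0.251% (0.195 to 0.319) in 14 null and 0.249% (0.189 to 0.322) in 14 heterozygous cells. In the cluster led by Ttr the order was the other way, with 0.292% (0.189 to 0.431) in 7 null and 0.398% (0.240 to 0.622) in 5 heterozygous cells. In both of these clusters the intervals overlap, and the difference between clusters was not tested.

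Outside the microglia-like cells null was also higher, at 1.01% against 0.541% of UMIs, a 1.86-fold ratio (1.75 to 1.98) over 34 and 61 cells. The make-up of these cells differed, with neutrophil markers at 6324 CPM in null (8 of 9 detected) and 295 in heterozygous (7 of 9), and monocyte and macrophage markers at 4573 and 3176 CPM (9 of 9 in both). The part of this in the result was not tested. The cluster led by Cd74 and H2-Eb1 had 1.33% in 15 null cells, 0.549% in 24 heterozygous cells and 0.725% and 0.750% in naive 1 and naive 2. In the cluster led by S100a8 and S100a9 the order was the other way, with 0.596% in 8 null and 0.651% in 16 heterozygous cells. In barcodes outside the filters the members made up 0.373% of all UMIs in null and 0.232% in heterozygous, 1.61-fold higher in null (1.53 to 1.69). Such barcodes are shallow or rich in mitochondrial transcripts, so a like difference stood in barcodes that were not counted as cells, and the part of free RNA in the cell values was not tested. Among microglia-like cells, neutrophil markers were at 276 CPM in null and 343 in heterozygous, and choroid and ependymal markers at 491 and 1185.

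Other genes of the pathway were read from lists that do not overlap the members. Of 44 further induced genes, 21 were measured in null and heterozygous, with a median log2 ratio of 0.51. In null 20 of them were higher, against 46.2% of all genes, and 7 by at least 1.5-fold, against 7.44%. Among the 5 of these with the most UMIs, Ly6e was at 0.58, Lgals9 at 0.17, Tspo at 0.68, Shisa5 at 0.38 and Sp110 at 0.51. For the upstream lists the same 46.2% of all genes applies, and the ligand and receptor and the signalling counts lay near it. Of 4 measured ligand and receptor genes 2 were higher and 2 lower in null, none by 1.5-fold, with a median of 0.07, Ifnar1 at 0.21, Ifnar2 at 0.18, Ifngr1 at -0.29 and Ifngr2 at -0.04. Of 9 sensing genes 6 were higher, with a median of 0.15, and of 11 signalling genes 5 were, with a median of -0.10. Within signalling, the feedback inhibitor Socs3 was at -1.06 (-1.26 to -0.87). Irf8 was at 0.04, Jak1 at -0.27, Irf5 at -0.10 and the phosphatase gene Ptpn6 at 0.56. Among sensing genes Tlr7 was at -1.22 (-1.60 to -0.85), Unc93b1 at 0.22, Tmem173, which encodes STING, at 0.57, Samhd1 at 0.72 and Myd88 at -0.24. Cxcl10 was at 2.84 with all cells and at 0.71 without the top 5% of cells, which held 84.6% of its UMIs in null. Ifnb1, the interferon beta gene, had 36 UMIs in naive 1, 14 in metastasis 1, 5 in metastasis 2, 1 in null and none in naive 2 or heterozygous.

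Metastasis and naive brains of unmodified mice were compared to ask how the members lie with tumour growth. As labelled, the 2 replicates went in opposite directions. In replicate 1 the summed share was 3.95-fold higher in metastasis (3.58 to 4.35, counting error only), and in replicate 2 it was 0.371 of the naive level (0.313 to 0.438). Over the libraries the share was 0.234% ± 0.197 (SD, n = 2) in metastasis and 0.175% ± 0.113 (SD, n = 2) in naive. The difference of 0.0591 percentage points was smaller than the spread between replicates (two-sided exact permutation test, p = 0.667, where the smallest p this design allows is 0.33).

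By gene, the quasi-likelihood test of edgeR with Benjamini-Hochberg adjustment over 5711 genes called none of the 23 members tested, and 0% of all genes, in microglia-like cells. None of the 23 had an unadjusted p under 0.05, as 2.89% of all genes had, and DESeq2 called none of them, with 1 below an unadjusted 0.05. The fitted log2 change lay above 0 for 17 and below 0 for 6, against 49.5% of all genes above 0, with a median of 0.30. This direction turned with a mitochondrial limit of 25% (2 above and 11 below, median -1.005, against 40.8% of all genes above 0). It also turned with a minimum of 200 genes (4 and 17, median -0.49, against 40.4%) and without metastasis 1 (3 and 24, median -1.49, against 46.9%). Without naive 1 the members lay near all genes (11 and 13, median -0.08, against 53.3%). Over all kept cells the same test called none of 30 members tested and 0% of 8248 genes, no member had an unadjusted p under 0.05, and DESeq2 gave the same count of 0 for both. The median there was -0.72, with 4 of 30 above 0, against 51.2% of all genes. Without naive 2 it was 0.88, with 28 of 30 above 0, against 57.7%. These p-values measure only the spread between the libraries of a group, which the labels place in separate brains. Without metastasis 2, where the remaining metastasis library is assumed to vary like the naive ones, Slfn2 passed in microglia-like cells (log2 change 2.70, edgeR adjusted p = 0.0191), as 1 of 148 genes called, 2.03% of those tested. Without naive 1, with naive 2 likewise the lone library of its group, Ifi44 passed in all kept cells (log2 change -4.72, edgeR adjusted p = 0.0354), as 1 of 45 genes called, 0.474% of those tested.

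Within each pair the direction held for most members. In replicate 1, 20 of the 23 members with at least 20 UMIs over both libraries were higher in metastasis, against 59.5% of all genes, and 3 were lower, against 40.5%. All 20 were higher by at least 1.5-fold, as were 35.3% of all genes, and the median log2 ratio was 1.92 (all genes 0.23). Slfn2 stood at 3.85 (3.39 to 4.34), Ifit2 at 3.29 (2.14 to 4.62), Ifi204 at 2.87 (2.09 to 3.70) and Ifitm3 at 2.63 (2.14 to 3.14). Irf7, with 25 against 3 UMIs, was at 4.39 (2.68 to 6.77), and Ifit3, with 19 against 1, was at 5.58 (2.93 to 10.96). The 3 lower members were Herc6, Ddx58 and Phf11b, whose intervals all held 0. In replicate 2, 15 of 16 measured members were lower in metastasis, against 53.6% of all genes, and 13 of them by at least 1.5-fold, against 24.7%, with a median of -1.67 when Oas1a, at 0 UMIs in metastasis 2, was set to 3 counts (all genes -0.05). Ifi27l2a stood at -2.94 (-4.28 to -1.85), Ifitm3 at -2.42 (-3.67 to -1.39), Bst2 at -1.07 (-1.73 to -0.45) and Lgals3bp at -0.94 (-1.60 to -0.34). Trim30a was the exception, at 0.06 (-0.65 to 0.73). The minimum of 20 UMIs was over both libraries, so some members passed it almost only through naive 2. Irf7 had 34 UMIs in naive 2 against 1 in metastasis 2, Rtp4 30 against 2 and Ifih1 22 against 2. In replicate 1 Irf7 and Ifit3 passed likewise through metastasis 1. The direction of such members is therefore not independent of the minimum, which was the same for all genes.

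Further values moved with these pairs. Metastasis 1 microglia-like cells came almost wholly from their own cluster. Their carcinoma markers were at 512 CPM, with 5 of 8 detected, Rhox5 and Esx1 among them. Naive 1 microglia-like cells were at 49.6 CPM, with 6 detected but neither Rhox5 nor Esx1. In replicate 2 these markers were at 16.7 CPM in naive 2, with 3 detected including Rhox5 and Esx1. Metastasis 2 had 0 UMIs of all 8. The microglia markers were at 6397 CPM in metastasis 1 against 20639 in naive 1, all 11 detected in both. The part of these markers in the result was not tested. By cluster, naive 2 and metastasis 2 had a member share of 0.133% and 0.0909% in the Egr1 cluster (25 and 33 cells), of 0.254% and 0.132% in the Ttr cluster (10 and 36 cells) and of 0.269% and 0.0740% in the cluster that holds most of naive 2 (91 and 7 cells). Naive 2 was the higher library in all 3. Replicate number and sequencer are the same split, and within each sequencer there is 1 library of each group, with the opposite signs given above. The naive libraries themselves differed 2.70-fold in the pooled share and 2.06-fold in the median cell.

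Other cells had a higher member share than microglia-like cells in all 6 libraries. The ratio was 4.21 in naive 1, 4.24 in naive 2, 1.22 in metastasis 1, 4.26 in metastasis 2 (5 cells), 2.12 in heterozygous and 2.04 in null. Clusters were made without the members or the further induced genes. All 31 members were measured in naive 2 and null with at least 20 UMIs over both sets of cells. In naive 2 all 31 were higher in other cells, 29 of them by at least 1.5-fold against 23.6% of all genes, with a median log2 ratio of 2.30. In null 29 were higher, 16 of them by at least 1.5-fold against 18.8% of all genes, and the median was 0.62. In heterozygous 21 of 29 were at least 1.5-fold higher, against 19.1%, with a median of 1.15. The counts were 13 of 18 in naive 1, against 17.3%, and 11 of 30 in metastasis 1, against 27.5%. Of the other cells of metastasis 1, 475 and 63 lay in 2 clusters named from carcinoma markers. Metastasis 2 had too few other cells for single genes, and 1 of its 5 held 33 of their 45 member UMIs.

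Ifitm3 had large ratios in other over microglia-like cells in each library where it had 20 UMIs, at log2 values of 3.86 in naive 1, 3.41 in naive 2, 1.07 in metastasis 1, 2.73 in heterozygous and 2.42 in null. Isg20, an exonuclease gene, had 3.51 in naive 2, 1.72 in metastasis 1, 1.88 in heterozygous and 2.08 in null. Lgals3bp was lower in other cells in 3 libraries, with -0.23 in metastasis 1, -0.19 in heterozygous and -0.31 in null, but 0.42 in naive 1 and 0.47 in naive 2. Trim30a was at -0.50 in naive 1, -0.64 in metastasis 1 and -0.13 in heterozygous, and at 0.20 in null and 1.13 in naive 2. Single cells weighed on these sums too. In naive 2, 1 cell held 1450 of the 4023 member UMIs of other cells (36.0%), and it lay in the cluster led by Igfbp7 and Cldn5. The 13 naive 2 cells of that cluster had a pooled share of 2.09% but a median of 0.269%. Within metastasis 1 the share was 0.809% in the S100a8 and S100a9 cluster, 0.746% in the cluster led by Spp1 and Fabp5, 0.712% in the Cd74 cluster, 0.412% in the cluster led by mt-Rnr1 and 0.174% in the Rhox5 cluster.

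**Figure D5:**
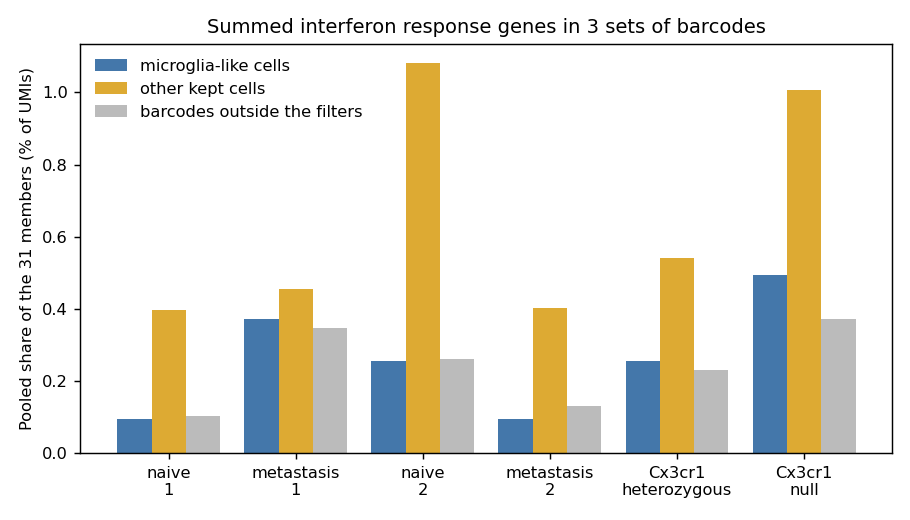
Pooled share of the 31 genes (y axis, percent of UMIs) in microglia-like cells, other kept cells and barcodes outside the filters, by library, without error bars. Other cells are the highest set in all 6 libraries, and the excluded barcodes lie near the microglia-like cells of the same library, except in null (0.373% against 0.495%) and metastasis 2 (0.132% against 0.0945%).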

How the data were processed

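For each library the authors deposited unnormalized UMI counts of its 1000 barcodes, and the count unit was read from the values. Per the submitters' processing notes, STAR, Seurat and mm10 were used; their versions and settings were not given in the sources used here. Groups came from the sample labels. The members and lists were chosen with earlier results of these data known. Barcodes with at least 400 genes and under 10% mitochondrial UMIs were kept. Counts were clustered with scanpy 1.11.5 and igraph 0.11.9 (2000 variable genes less the members and further induced genes, 30 components, 15 neighbours, resolution 1) and clusters named from marker lists. Doublets were ranked by Scrublet and removed only in an alternative. Counts were summed per library. Metastasis and naive were compared with edgeR 4.0.16 in R 4.3.3 (TMM, filterByExpr, quasi-likelihood test, Benjamini-Hochberg adjusted p under 0.05), with DESeq2 1.42.0 as an alternative, and tested on simulated data. Null and heterozygous were compared by CPM ratios with exact 95% binomial intervals, which cover counting error only, at 50 UMIs or more over both libraries, and replicate pairs or other against microglia-like cells at 20. A 0 was set to 3 counts in ratios. Members with at least 50 UMIs over the 6 libraries were given in full, and other pathway genes as the 5 with the most UMIs per list, besides Cxcl10 and Ifnb1, named after their values were seen. Alternatives covered filters, doublets, cell naming, thinning, normalization, single libraries and high cells. Promoter windows are RefSeq, gene names those of the tables. One pathway gene is not reported here.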

Additional observations from a re-analysis of the deposited data

Results flagged for a closer look

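The barcodes outside the filters were not counted as cells and entered no test. Those of metastasis 1 (10 barcodes) had a summed member share of 0.347% and those of null (840 barcodes) one of 0.373%, both above the 0.102% and 0.262% of the naive libraries, the control samples. The share in these barcodes was 0.132% in metastasis 2 and 0.232% in heterozygous.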

How the results depend on the processing

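The summed null over heterozygous log2 ratio (0.96) was above 0 under all 11 alternatives, at 0.64 with cells thinned to 800 UMIs, 0.72 without the single highest cell per library, 0.65 without the top 5% of cells and 1.07 without the most abundant member. Members at least 1.5-fold higher fell from 19 of 23 to 8 of 16 without the top 5% of cells, where 7 members no longer had 50 UMIs, and to 15 over the same 23. The share over all genes was not computed without these cells. The share of member UMIs in the top 5% of cells was 16.9% (thinned) and 20.5% (marker rule per barcode) in heterozygous, where it was 24.5%. In null, at 42.5%, it was 39.8% over all kept cells, 20.4% thinned, 48.4% with a 25% mitochondrial limit, 45.0% with the marker rule and 50.4% with doublets removed. In naive 2, at 43.0%, it was 57.1% over all kept cells, 22.9% thinned and 33.0% with the marker rule. Metastasis minus naive in the summed share was -0.110 percentage points over all kept cells, and -0.0801 to 0.198 with a library left out. Leaving out a library gave 0 to 1 members called in microglia-like and in all kept cells, with median log2 changes of -1.49 to 1.09 and -2.49 to 0.884. Without metastasis 2, Slfn2 was called (2.03% of all genes were), and without naive 1, Ifi44 (0.474%), which was also the 1 member called over all kept cells without a low-count filter (0.67%). With a 25% mitochondrial limit and with 200 genes, only 6 and 7 metastasis 1 cells were named microglia-like, and the member median was -1.005 and -0.49. Under both limits the separate microglia-like cluster of that library was not found. The mt-Rnr1 cluster, named from carcinoma markers, then held 644 and 627 metastasis 1 cells, against 475. The metastasis 1 microglia-like values thus depend on how clusters were formed and named. The replicate block called 0 members in microglia-like and in all kept cells, with medians of 0.27 and -0.42. Deviations of same-numbered libraries correlated at -0.17 and -0.41. With 2 libraries per group the crossed numbers must then give 0.17 and 0.41, so this cannot decide whether the numbers pair the libraries. A block with crossed numbers, chosen after seeing the data, called 0 members in both. Depth limits metastasis 2, where 10 members had no UMI and 3 counts are 17.4 CPM. The causes were not tested.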
